A study of Mus musculus with 2 samples.

Results

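The genes described are the cytosolic ribosomal protein genes of the mouse, taken as hosts of small RNAs, that is, as messenger RNAs whose sequence small RNA reads match in sense. They are the protein-coding genes of GENCODE M21 with a symbol of Rpl or Rps and a digit, with Rplp0, Rplp1, Rplp2 and Rpsa and without the Rps6k kinases. The rule gave 92 of the 32183 annotated genes that code for protein or a long noncoding RNA, 57 with a large subunit symbol and 35 with a small subunit symbol. Of these, 77 carry the names of standard ribosomal proteins, 7 are paralogs such as Rpl10l, 6 have symbols with -ps although they are annotated as protein-coding, and 2 (Rps19bp1 and Rpl7l1) share the name without being ribosomal proteins.

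The series has 1 small RNA library per genotype, Tdrkh-/- and Tdrkh+/-, each from 5 pooled pairs of testes taken 11 days after birth. All mice were on a C57Bl6/129 background. The null allele lacks exons 2 to 4 of Tdrkh (the start codon is in the first of these), excised by EIIa-Cre, a transgene that an intercross of heterozygotes then removed. Both libraries thus come from mice with at least 1 deleted allele. The knockout was made as 2 founder lines, and the labels do not say which of them gave the libraries. The series asks whether Tdrkh, which has Tudor and KH domains and sits on mitochondria, takes part in making primary piRNAs. With 1 library per group there is no replicate check and no test, 95% intervals cover counting error only, and without molecular identifiers a read cannot be taken as a molecule of its own.

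Ribosomal proteins are made from some of the most abundant messenger RNAs of any cell, short transcripts that begin with a run of pyrimidines and are translated in step with growth. In the germ line, PIWI proteins carry piRNAs, which are cut from long single-stranded precursors, often begin with U, and are trimmed at the 3′ end from longer intermediates. Messenger RNAs can enter this pathway, so a ribosomal protein gene can serve as a piRNA source as well as a code for protein. Ribosomal protein messenger RNAs have also been copied back into the genome many times, so most of these genes have processed pseudogenes with nearly the same sequence.

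The libraries held 60973266 reads (Tdrkh-/-) and 43172204 reads (Tdrkh+/-) of 18 to 40 nt. In exons 2 to 4 of Tdrkh there were 0 sense reads in Tdrkh-/- and 17 in Tdrkh+/-, against 728 and 1087 in its other exons. Of the 8 germ cell markers listed, all had sense reads and 4 (Dazl, Sycp1, Tex14 and Stra8) had at least 500 reads of 24 to 30 nt. Summed over the list, reads of 24 to 30 nt of the germ cell markers had a log2 ratio of -1.66, those of the 8 Sertoli markers -0.24, of the 6 Leydig markers -0.95 and of the 4 peritubular markers 0.97. The 4 macrophage markers summed to 10 and 26 such reads and the 5 blood markers to 146 and 133. Single genes carried the Leydig and peritubular sums in Tdrkh-/-: Star gave 254 of 317 reads and Myh11 627 of 772. Markers with fewer reads went the other way, Hsd3b1 at 0.69 and Cyp17a1 at 1.66 among the Leydig, Cnn1 at -2.19 and Tagln at -0.88 among the peritubular and Amhr2 at 1.20 and Wt1 at 0.24 among the Sertoli markers. The same sum at 24 to 30 nt over all host genes was -1.23. At 31 to 37 nt the sums were 0.85 for germ cell, 0.27 for Sertoli, 2.26 for Leydig and 0.35 for peritubular markers, beside 2.12 over all host genes. All of these are reads of small RNAs and not levels of messenger RNA. The lists thus differ between the libraries in both directions, and their part in the results was not tested. In these bulk libraries fewer cells of a type, less RNA per cell and fewer small RNAs per messenger RNA cannot be told apart.

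The sequences that carry the main pattern are shown first. Each is read from a 5′ end found in both libraries, in the strand of the messenger RNA and written with T for U. Capitals mark the bases by which the most abundant form in Tdrkh-/- runs past the most abundant form in Tdrkh+/-. Only forms of 24 to 37 nt were compared for this. In the following 5 the Tdrkh-/- form was longer. They come from the coding region of the transcripts named, in GRCm38 coordinates.
Rps27l (Rps27l-203, chr9:66946836-66946871, plus strand): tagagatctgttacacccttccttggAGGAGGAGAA
Rpl19 (Rpl19-201, chr11 from 98027898 to 98028347 across an intron, plus strand): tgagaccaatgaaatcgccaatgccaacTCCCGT
Rpl32 (Rpl32-202, chr6:115805619-115805652, minus strand): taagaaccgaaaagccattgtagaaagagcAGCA
Rpl8 (Rpl8-202, chr15:76904599-76904629, plus strand): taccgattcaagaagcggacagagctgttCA
Rpl4 (Rpl4-201, chr9:64177920-64177949, plus strand): tgaagaagaatccactgaagaacctgagAA

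In the next 3, also from coding regions, both libraries had the same most abundant form, so no base is capitalised. They show ends where reads were fewer in Tdrkh-/- and the most abundant length stayed the same.
Rps15 (Rps15-202, chr10 from 80293872 to 80293990 across an intron, plus strand): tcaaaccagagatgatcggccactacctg
Rplp1 (Rplp1-201, chr9:61914388-61914416, minus strand): tccgagctcgcttgcatctactccgccct
Rpl27a (Rpl27a-203, chr7 from 109519221 to 109519609 across an intron, plus strand): tgccatccagactgaggaagacccgga
All 8 begin with U. The sequence of Rpl8 and that of Rps27l match 1 gene alone, whereas the Tdrkh+/- form of Rpl27a matches 9 annotated genes and that of Rpl19 7, pseudogenes included, so their position in the member gene is one of several possible. The ends of Rpl19, Rpl32 and Rpl27a were chosen after their values were seen, as ends with the most reads.

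Small RNAs of ribosomal protein genes were fewer in Tdrkh-/- at 24 to 30 nt, the usual size of piRNAs, and more frequent at 31 to 37 nt when reads were counted. Reads of these sizes are called short and long below. Counting each read once, 52075 reads of 24 to 30 nt matched a member in Tdrkh-/- and 237386 in Tdrkh+/-, which is 20.9 and 100.4 per 1000 microRNA reads. The ratio of these levels was 0.209 (0.207 to 0.211, 95% interval), 4.80-fold lower in Tdrkh-/-. Reads of 31 to 37 nt numbered 104073 and 64673, a ratio of 1.53 (1.51 to 1.54). Distinct long sequences were fewer in Tdrkh-/-, 7713 against 9505, and distinct short ones numbered 4868 and 18517. The higher level of long reads thus does not extend to the number of different sequences. The members gave 0.550% of all Tdrkh+/- reads at 24 to 30 nt and 0.0854% of all Tdrkh-/- reads. In Tdrkh+/- the most frequent length was 28 nt, with 17.4% (17.3 to 17.5) of member reads, and in Tdrkh-/- it was 34 nt, with 9.31% (9.18 to 9.44). The Tdrkh+/- library had 2.16% (2.11 to 2.21) of its member reads at 34 nt, and the Tdrkh-/- library had 4.42% (4.33 to 4.51) at 28 nt.

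**Figure D1:**
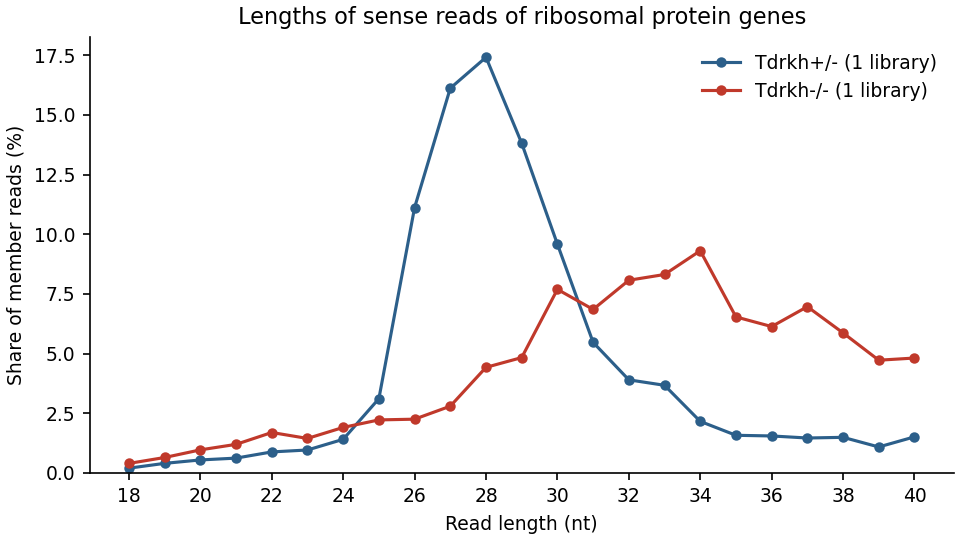
Share of the sense reads of ribosomal protein genes (y axis, percent) at each read length from 18 to 40 nt (x axis), for 1 library per genotype. Tdrkh+/- peaks at 28 nt with 17.4% of member reads, and Tdrkh-/- is spread over longer lengths with its highest share, 9.31%, at 34 nt.

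Per gene, a read that matches several genes was divided equally among them, pseudogenes included, and values below are such divided reads. Reads were found for 91 members, all but Rpl36-ps4. At 24 to 30 nt 90 of these 91 were lower in Tdrkh-/- per microRNA read, 81 of them at least 2-fold, with a median log2 ratio of -2.38 (quartiles -2.99 and -1.66); Rpl6 was the exception. At 31 to 37 nt 70 were higher and 21 lower, with a median of 0.67 (quartiles 0.08 and 1.17). The number of long reads per short read was higher in Tdrkh-/- in 90 members, and Rpl29, with 47.4 short reads in Tdrkh+/-, was the exception. This number does not depend on the scaling between libraries. Shares of all host genes are given only for genes that pass a minimum of reads, set below. The counts over these 91 members thus have no host share beside them. Whether they are particular to the members was not tested.

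For a comparison with other genes a minimum of 500 divided reads of 24 to 30 nt over both libraries was set. It was passed by 56 members, and by 3942 host genes in all; the last member inside had 513 reads and the first outside 476. Tdrkh+/- reads carried most members over the minimum, 49 of them alone and 11 by Tdrkh-/- reads alone, so the choice itself favours members that are lower in Tdrkh-/-. The counts that follow describe the members that passed and support no direction. Of the 56, 51 were at least 2-fold lower at 24 to 30 nt, where 73.2% of all hosts that passed were, and 0 were at least 2-fold higher, where 5.1% were. At 31 to 37 nt 17 members were at least 2-fold higher, against 78.2% of hosts, and 1, Rps15, was at least 2-fold lower, against 1.07%. The count lower at the short and higher at the long lengths was 41, against 86.3% of hosts, and 14 members were lower at both lengths, against 4.49%. The ratio of long to short reads was higher in Tdrkh-/- in all 56, where 98.7% of hosts were so.

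The median log2 ratio of these members was -2.63 at 24 to 30 nt and 0.60 at 31 to 37 nt, against -1.57 and 1.73 over all hosts. Median long reads per short read were 2.09 in Tdrkh-/- and 0.235 in Tdrkh+/- for the members, beside 2.07 and 0.206 for all hosts. The medians of long reads per short read were thus close to those of the hosts within each library, while the median log2 ratios of the members lay below those of the hosts at both lengths. With each distinct sequence counted once the median at 31 to 37 nt turned to -0.35 and 0 members were at least 2-fold higher there, while the median at 24 to 30 nt was -2.02. With levels per read listed every log2 ratio is lower by a constant, a shift of -0.42, and with levels per transcript-matching read the shift is -0.57. At 24 to 30 nt 55 of the 56 were lower per microRNA read and all of them under either other scaling, but the number higher at 31 to 37 nt went from 42 to 32 and 29. Large and small subunit members had medians of -2.66 and -2.51 at 24 to 30 nt and 0.62 and 0.55 at 31 to 37 nt.

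**Figure D2:**
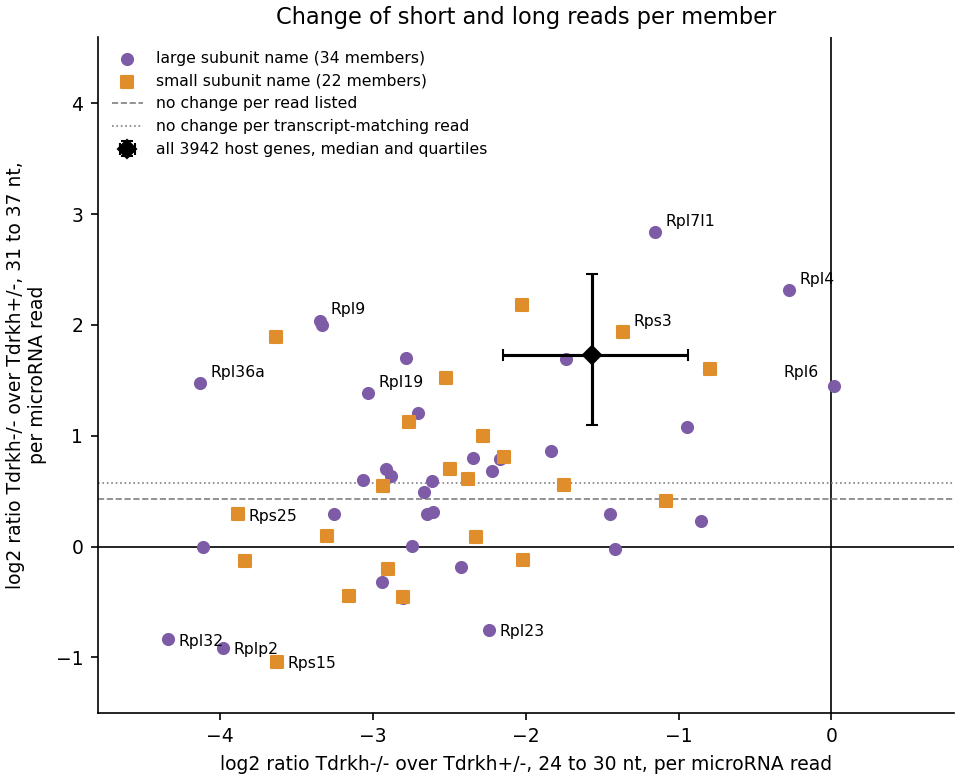
Log2 ratio of Tdrkh-/- over Tdrkh+/- per microRNA read at 24 to 30 nt (x axis) and 31 to 37 nt (y axis) for the 56 members with at least 500 reads, with the median and quartiles of all 3942 hosts as a diamond; solid lines mark no change, and dashed and dotted lines mark where no change lies per read listed and per transcript-matching read. Most members lie left of and below the diamond, and those between the horizontal solid and dashed lines are higher at 31 to 37 nt under microRNA scaling alone.

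Among the large subunit proteins, Rpl4, which lines the exit tunnel of the nascent peptide, had the most divided reads. It had 5146 reads in Tdrkh-/- and 5938 in Tdrkh+/- at 24 to 30 nt and 9562 in Tdrkh-/- and 1824 in Tdrkh+/- at 31 to 37 nt. Its log2 ratios were -0.28 (-0.33 to -0.23) and 2.32 (2.24 to 2.39), so it was slightly lower at the short and far higher at the long lengths. Sequences of Rpl4 alone gave a log2 ratio of -1.45 at 24 to 30 nt, and 80.6% of its undivided reads also match a pseudogene. Rpl8, which lies at the peptidyl transferase centre and has 99.5% of its reads in sequences of 1 gene, had 587 reads in Tdrkh-/- and 2829.5 in Tdrkh+/- at 24 to 30 nt. It had 590 in Tdrkh-/- and 322 in Tdrkh+/- at 31 to 37 nt, and its log2 ratios of -2.34 (-2.47 to -2.21) and 0.80 (0.60 to 1.0) were of opposite sign in a gene with almost no shared reads.

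Rpl32 had the lowest ratio of all members that passed, with 168 reads in Tdrkh-/- and 3233 in Tdrkh+/- at 24 to 30 nt. The difference was 20.2-fold, a log2 ratio of -4.34 (-4.57 to -4.11). Its long reads were also lower, with 572 in Tdrkh-/- and 972 in Tdrkh+/-, a log2 ratio of -0.84 (-0.99 to -0.69). Rpl36a, X-linked, followed with 132 reads in Tdrkh-/- and 2203 in Tdrkh+/- and a log2 ratio of -4.13 (-4.39 to -3.88) at 24 to 30 nt. A single 5′ end carried 79.1% of its short Tdrkh+/- reads, and its long reads were few and higher, 210.3 in Tdrkh-/- and 71.8 in Tdrkh+/-. Rpl38, known for its part in the translation of Hox messenger RNAs, had 69.8 reads in Tdrkh-/- and 1148 in Tdrkh+/- at 24 to 30 nt, a log2 ratio of -4.11 (-4.48 to -3.76), and level long reads of 97.3 in Tdrkh-/- and 92.7 in Tdrkh+/-.

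Rpl19, which forms a bridge between the subunits, had 343 reads in Tdrkh-/- and 2673 in Tdrkh+/- at 24 to 30 nt and 1439.5 in Tdrkh-/- and 524 in Tdrkh+/- at 31 to 37 nt. Its log2 ratios of -3.03 (-3.20 to -2.87) and 1.39 (1.24 to 1.53) had opposite signs, and 67.6% of its long Tdrkh-/- reads began at the 5′ end printed above. Sequences of Rpl19 alone did not show the higher long ratio, with 243 long reads in Tdrkh-/- and 251 in Tdrkh+/-, a log2 ratio of -0.12. Of its undivided reads 95.7% also match a pseudogene. Rpl9 had one of the 4 highest long ratios, 2.04 (1.69 to 2.40), from 355 in Tdrkh-/- and 82.1 in Tdrkh+/-, beside a short ratio of -3.35 (-3.57 to -3.13). Rpl9-ps6, which nearly shares its sequence, holds almost the same divided reads, so the pair cannot be told apart here. Rpl23, which can bind MDM2, had one of the 4 lowest long ratios: long reads were already the more frequent in Tdrkh+/-, at 2.58 per short read; they numbered 1206 in Tdrkh-/- and 1933 in Tdrkh+/-, a log2 ratio of -0.75 (-0.86 to -0.65).

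Rpl6 was the 1 member that passed without being lower. It had 1122 reads in Tdrkh-/- and 1056 in Tdrkh+/- at 24 to 30 nt, a log2 ratio of 0.01 (-0.11 to 0.14), and 422 in Tdrkh-/- and 147 in Tdrkh+/- at 31 to 37 nt. A 5′ end in the 5′ UTR, at base 44 of the transcript and in sequences of Rpl6 alone, had 1010 reads in Tdrkh-/- and 249 in Tdrkh+/-. An end in its coding region, at base 527, went the other way at 24 to 30 nt, with 206 and 640 reads. Ends of this gene thus differed in opposite directions. Both were singled out after their values were seen. Rpl18 and Rpl22 were also among the 6 least lowered, and had log2 ratios of -0.94 (-1.14 to -0.75) and -0.85 (-1.10 to -0.61) at 24 to 30 nt, from 324 reads in Tdrkh-/- and 592 in Tdrkh+/- and from 224 reads in Tdrkh-/- and 384 in Tdrkh+/-. Their long ratios were 1.08 and 0.23, the latter turning to -0.19 per read listed.

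The long reads of Rpl13 lay mostly over Snord68, a small nucleolar RNA annotated within its transcript; reads wholly inside such RNAs had been left out, and those counted reach past it. Of its 860.0 long Tdrkh-/- reads 760 lay there, and 140 of 224 in Tdrkh+/-. No other member had more than 24.6 such reads in a length window of the Tdrkh-/- library. Rpl13 was looked at for this overlap after its values were seen.

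**Figure D3:**
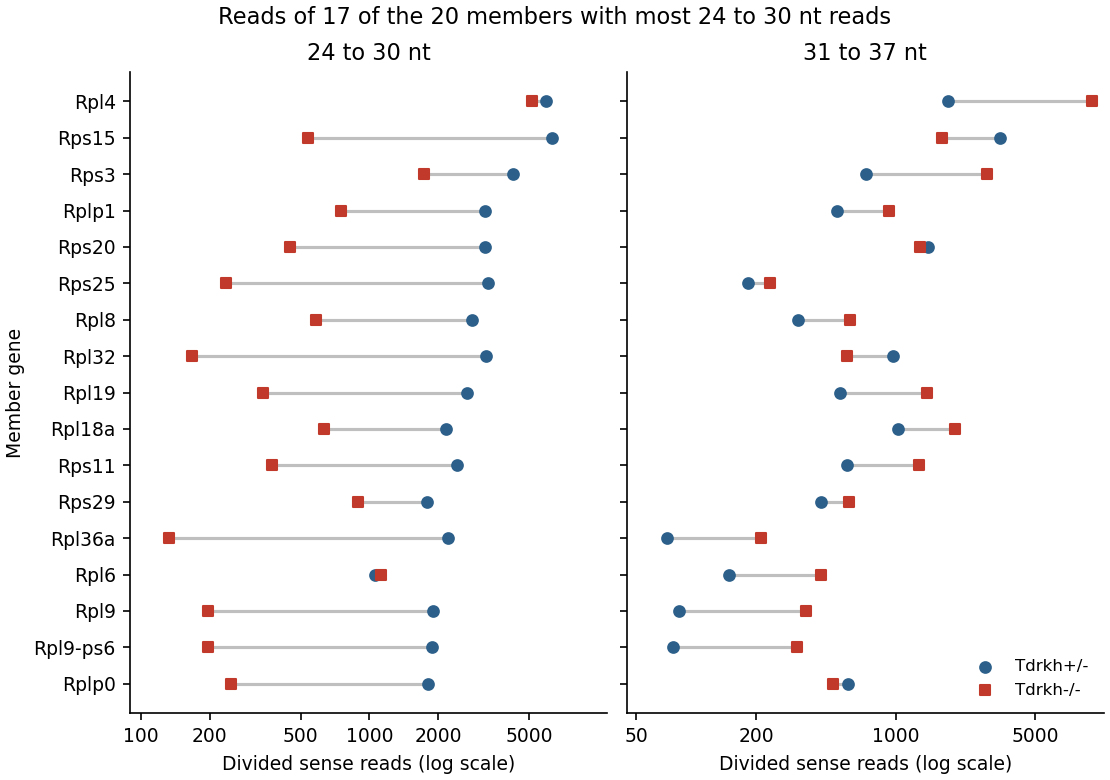
Divided sense reads (log scale) of 17 of the 20 members with the most reads of 24 to 30 nt, at 24 to 30 nt (left) and 31 to 37 nt (right), with a circle for the Tdrkh+/- library and a square for the Tdrkh-/- library; reads are not scaled between libraries. At the short lengths every square but that of Rpl6 lies left of its circle, from 168 against 3233 for Rpl32 to 5146 against 5938 for Rpl4; at the long lengths squares lie on either side.

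Among the small subunit proteins, Rps15, which sits in the head near the decoding site, had the highest level of short Tdrkh+/- reads for its length, 12635 per kb of transcript. It had 537 reads in Tdrkh-/- and 6318 in Tdrkh+/- at 24 to 30 nt and 1707 in Tdrkh-/- and 3329.9 in Tdrkh+/- at 31 to 37 nt. Both log2 ratios were negative, -3.63 (-3.76 to -3.50) and -1.04 (-1.12 to -0.95), the latter the lowest of the members that passed.

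Rps3, at the messenger RNA entry channel, had 1736 reads in Tdrkh-/- and 4253 in Tdrkh+/- at 24 to 30 nt and 2854 in Tdrkh-/- and 709.6 in Tdrkh+/- at 31 to 37 nt. Its log2 ratios were -1.37 (-1.45 to -1.29) and 1.94 (1.82 to 2.06), and 83.9% of its reads were of sequences in 1 gene. The 5′ end with most short Tdrkh+/- reads, base 705 of Rps3-201, in its coding region, had 1874 short reads in Tdrkh+/- and 30 in Tdrkh-/-. An end in its 3′ UTR, at base 1469 and in sequences of Rps3 alone, went the other way, with 276 short reads in Tdrkh+/- and 1156 in Tdrkh-/-, and 62 and 784 long ones, a log2 ratio of 2.45 over both. It was singled out after its values were seen.

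Rps25, which is needed for translation from some internal entry sites, had 235 reads in Tdrkh-/- and 3299.7 in Tdrkh+/- at 24 to 30 nt, a log2 ratio of -3.89 (-4.08 to -3.69). One 5′ end in the annotated 5′ UTR, at base 594 of its longest coding transcript and in 1 gene, held 81.4% of its short Tdrkh+/- reads. Long reads were few, 233 in Tdrkh-/- and 181 in Tdrkh+/-, and their ratio of 0.29 turned to -0.13 per read listed. Rps27a, made as a fusion with ubiquitin, had 79.6 reads in Tdrkh-/- and 1079.7 in Tdrkh+/- at 24 to 30 nt, a log2 ratio of -3.84 (-4.18 to -3.51), and level long reads of 169 in Tdrkh-/- and 175 in Tdrkh+/-. Rps20 had 452 reads in Tdrkh-/- and 3214 in Tdrkh+/- and a log2 ratio of -2.90 (-3.05 to -2.76) at 24 to 30 nt, with long reads of 1319.8 in Tdrkh-/- and 1442 in Tdrkh+/-.

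Rps28 and Rps29 were among the 6 least lowered, with log2 ratios of -0.80 (-0.97 to -0.62) and -1.08 (-1.20 to -0.97) at 24 to 30 nt. Rps28 had 447 reads in Tdrkh-/- and 737 in Tdrkh+/-, and Rps29 had 889 reads in Tdrkh-/- and 1792 in Tdrkh+/-. The long ratio of Rps29, 0.41, turned to -0.02 per read listed.

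The acidic proteins of the stalk, which recruits elongation factors to the ribosome, all had reads. Rplp1 had 753 reads in Tdrkh-/- and 3218 in Tdrkh+/- at 24 to 30 nt, a log2 ratio of -2.17 (-2.28 to -2.05), and 925 in Tdrkh-/- and 507 in Tdrkh+/- at 31 to 37 nt. Rplp2, its partner, had 67.8 reads in Tdrkh-/- and 1019.5 in Tdrkh+/- and a lower ratio of -3.98 (-4.36 to -3.63), with long reads of 216 in Tdrkh-/- and 387 in Tdrkh+/-. Rplp0, the base of the stalk, had 249 reads in Tdrkh-/- and 1812 in Tdrkh+/-, a log2 ratio of -2.94 (-3.14 to -2.75), with long reads of 484 in Tdrkh-/- and 575 in Tdrkh+/-. The 3 stalk proteins were thus lower at the short lengths together, while long reads were higher in Rplp1 alone, at 0.79 (0.64 to 0.95) against -0.91 (-1.16 to -0.67) in Rplp2 and -0.32 (-0.50 to -0.14) in Rplp0. Rpsa, also known as a laminin receptor, did not pass the minimum and had 66.8 reads in Tdrkh-/- and 266 in Tdrkh+/- at 24 to 30 nt.

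Paralogs with restricted expression had fewer reads than the leading members. Rpl10l, the testis paralog that stands in for X-linked Rpl10 during meiosis, had 35.5 reads in Tdrkh-/- and 93.5 in Tdrkh+/- at 24 to 30 nt, and Rpl10 had 37.9 reads in Tdrkh-/- and 71.9 in Tdrkh+/-. Rpl39l, enriched in testis, had 50.5 reads in Tdrkh-/- and 252 in Tdrkh+/-, and its X-linked parent Rpl39 had 65.2 reads in Tdrkh-/- and 468 in Tdrkh+/-. Per kb of transcript the Tdrkh+/- levels were 91.4 and 84.2 for the first pair and 313 and 765 for the second, so Rpl10l was close to its parent and Rpl39l below it. Rpl36al, a copy of Rpl36a, had 15.2 reads in Tdrkh-/- and 178 in Tdrkh+/-. Rpl22l1 had 79.3 reads in Tdrkh-/- and 215 in Tdrkh+/-, and Rpl3l, the muscle paralog, had 4 reads in Tdrkh-/- and 21 in Tdrkh+/-, against 105 reads in Tdrkh-/- and 316 in Tdrkh+/- for Rpl3. Rps4x had 12.8 reads in Tdrkh-/- and 61.3 in Tdrkh+/-, Rps27 had 9.45 reads in Tdrkh-/- and 114 in Tdrkh+/- and Rpl7 had 227 reads in Tdrkh-/- and 718 in Tdrkh+/-; Rps4l is not among the members.

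Of the 7 members counted above as paralogs, Rps27l alone passed the minimum. It had 159 reads in Tdrkh-/- and 1343 in Tdrkh+/- at 24 to 30 nt and 206 in Tdrkh-/- and 267 in Tdrkh+/- at 31 to 37 nt. With 98.2% of reads in 1 gene and log2 ratios of -3.15 (-3.40 to -2.92) and -0.45 (-0.72 to -0.18), it was lower at both lengths on reads that are nearly all its own. Per kb its short Tdrkh+/- reads stood at 2336, against 330.4 for Rps27. Rpl7l1, a factor of large subunit assembly that is also listed as a paralog of Rpl7, had the highest long ratio of the members that passed. It had 576 reads in Tdrkh-/- and 1221 in Tdrkh+/- at 24 to 30 nt and 1083 in Tdrkh-/- and 144 in Tdrkh+/- at 31 to 37 nt, with log2 ratios of -1.16 (-1.30 to -1.01) and 2.84 (2.58 to 3.10). Its most abundant short sequence lies in the 3′ UTR and occurs in 40 genes. Rps19bp1, which binds Rps19, did not pass, with 42 reads in Tdrkh-/- and 126 in Tdrkh+/-.

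Most member reads cannot be placed in a single gene. Of the reads of 24 to 30 nt, 68.8% (68.4 to 69.2) in Tdrkh-/- and 75.9% (75.7 to 76.1) in Tdrkh+/- also match an annotated pseudogene, and of those of 31 to 37 nt 69.9% and 71.4%. Sequences in 1 gene alone made up 22.8% and 18.4% of the short and 26.7% and 24.5% of the long reads. Per member the share in 1 gene ran from under 10% in 39 members to at least 90% in 5, among them Rpl8, Rps27l, Rps19bp1 and Rpl3l. Counts for the first kind, such as Rpl19 with 4.26% and Rpl9 with 0.476%, are uncertain as to the gene.

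Reads that match 1 annotated gene and cross an exon junction carry the spliced sequence of the member. A processed pseudogene outside the annotation would carry it too, because reads were matched to annotated transcripts and not to the genome. Such junction reads came from 46 members at 24 to 30 nt in Tdrkh+/- and from 45 at 31 to 37 nt in Tdrkh-/-. At 24 to 30 nt 14.1% (13.8 to 14.5) of the reads in 1 gene crossed a junction in Tdrkh+/- and 20.8% (20.1 to 21.6) in Tdrkh-/-, where 11% of all start positions on the transcripts give a 28 nt sequence across one. At 31 to 37 nt the shares were 12.2% and 11.6%, with 13.4% of start positions for 34 nt. Spliced member sequences therefore had reads in both libraries and at both lengths, with the limit that unannotated copies cannot be told apart.

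A 5′ end is a position of the transcript at which reads begin, and reads from the same end can be compared for length; reads of single ends are counted whole, not divided. There were 305 ends with at least 50 reads of 24 to 37 nt in each library, in 64 members, 268 of them in coding regions. At 276 of them (90.5%) the mean length was greater in Tdrkh-/-, with a median difference of 2.01 nt (quartiles 0.791 and 3.32). Over the 62 ends in 1 gene it was greater at 51, with a median of 1.37 nt. The differences ran over a range: 154 ends were longer in Tdrkh-/- by over 2 nt, 92 by 0.5 to 2 nt, 51 differed by under 0.5 nt and 8 were shorter by 0.5 nt or more. The median log2 ratio of all reads of an end was -0.77 for the first, -0.77 for the next and -0.83 for those within 0.5 nt. Reads were thus fewer in Tdrkh-/- at the typical end of each of these 3 length classes. By first base the ends differed. The median was -1.08 for the 224 ends that begin with U, of which 174 were lower. It was 0.12 for the 81 that do not, of which 37 were lower. Ends of other host genes were not compared. Among ends longer by over 2 nt the most abundant form was longer in Tdrkh-/- at 134 ends, and among those within 0.5 nt it was the same form at 45. Mean lengths and most abundant forms of ends were taken over 24 to 37 nt alone.

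The Rpl19 end printed above had the most long reads in Tdrkh-/-. Its 28 nt form had 5566 reads in Tdrkh+/- and 278 in Tdrkh-/-, and its 34 nt form 441 and 4486. The mean length went from 28.5 to 32.7 nt. At the Rps27l end the 26 nt form had 382 reads in Tdrkh+/- and 7 in Tdrkh-/-, and the 36 nt form 102 and 46, a difference of mean length of 4.47 nt. At the Rpl4 end Tdrkh+/- had mostly a 28 nt form and Tdrkh-/- one of 30 nt. The longer form had 130 reads in Tdrkh+/- and 4679 in Tdrkh-/-. Both forms of this Rpl4 end fall in the window of 24 to 30 nt.

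In members with sequences of 1 gene the same was seen on fewer reads. The Rpl8 end had a mean length of 28.9 nt over 817 reads in Tdrkh+/- and 30.9 nt over 140 reads in Tdrkh-/-. The Rps27l end went from 28.7 nt over 741 reads to 33.2 nt over 81. Both had fewer reads in Tdrkh-/- over all lengths together.

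At other ends reads were fewer in Tdrkh-/- and the most abundant form was the same. Tdrkh+/- had 3726 reads of the 29 nt Rps15 sequence against 357 in Tdrkh-/-, and its end had 2 and 0 long reads. The 27 nt Rpl27a sequence, which begins at the base after the A of the start codon, had 2900 and 62 reads, with 71 and 18 long ones. The Rplp1 end kept its most abundant length but was longer on average, at 29.2 nt in Tdrkh-/- and 27.7 nt in Tdrkh+/-. Its short reads numbered 2491 in Tdrkh+/- and 144 in Tdrkh-/-, and its long reads 11 and 39. The Rpl32 end had both a longer form and far fewer reads. Over 24 to 37 nt its mean length was greater by 3.24 nt. Its 30 nt form had 7338 reads in Tdrkh+/- and 103 in Tdrkh-/-, and its 34 nt form 10 and 266. Its 38 nt form, outside the lengths compared, had 33 reads in Tdrkh+/- and 429 in Tdrkh-/-. In Tdrkh-/- that form had more reads than the 34 nt form printed above.

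**Figure D4:**
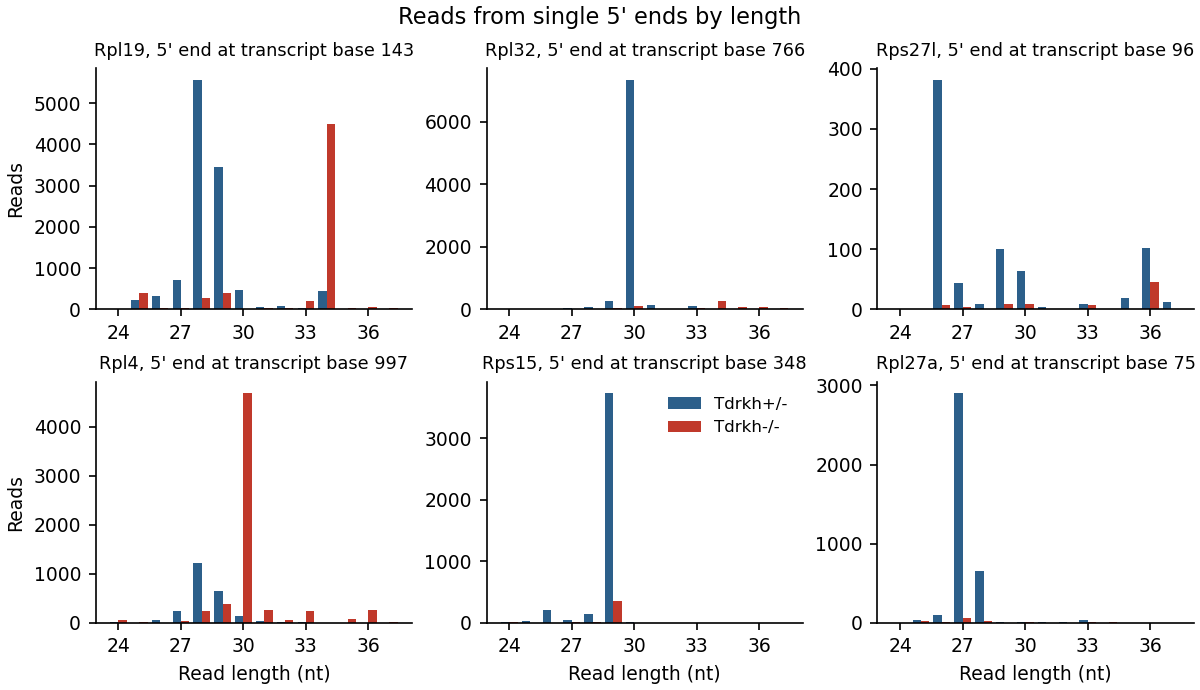
Reads (y axis, linear, each panel with its own scale) by read length from 24 to 37 nt (x axis) for 6 5′ ends, with blue bars for Tdrkh+/- and red bars for Tdrkh-/-. In Rpl19, Rps27l and Rpl4 the tallest red bar stands to the right of the tallest blue one (34 against 28, 36 against 26 and 30 against 28 nt), whereas in Rps15 and Rpl27a both are at the same length and the red bar is lower.

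Long and short reads mostly began at the same places. Of the divided long reads of Tdrkh-/- 85.8% began where a read of 24 to 30 nt of Tdrkh+/- begins. When the starts were moved by 1 to 10 nt to either side, the median was 52.2% and the highest share 69.3%. With U required at the start, these were 89.9%, 66.4% and 83.4%. Counting each distinct sequence once gave 67.8%, 41.4% and 51.9%. In sequences of 1 gene with U required the values were 85.4%, 54.5% and 83.0%. The long reads of Tdrkh+/- shared starts with its own short reads to the same extent, 86.5%, against 52.4% and 73.2% for moved starts. In sequences of 1 gene with U required these were 90.2%, 66.3% and 91.8%, so there the highest moved share was no lower.

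The 3′ ends differed in the base that follows in the messenger RNA. In Tdrkh-/- this next base was U for 56.5% (55.9 to 57.2) of the short and 55.7% (55.3 to 56.2) of the long reads. In Tdrkh+/- it was U for 21.8% (21.5 to 22) and 39.3% (38.7 to 39.9), and U makes up 23.8% of the member transcripts. The share was higher in Tdrkh-/- in 53 of the 56 members that passed, with medians over members of 45.8% and 24.4%. Next bases, and the gaps between reads given below, were not compared with those of other host genes. Whether they are particular to the members is therefore not known. With each distinct sequence counted once the next base was U for 33.6% and 24.6% of the short sequences and 37.8% and 28.6% of the long ones, in Tdrkh-/- and Tdrkh+/-. Among the printed ends the Tdrkh-/- forms of Rpl4 and Rpl8 are followed by U, their Tdrkh+/- forms are not, and for Rpl19 it is the Tdrkh+/- form that is.

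Where 1 read ends at the base before another begins, the gap between them is 0. Over pairs of distinct sequences of a member, a gap of 0 was 1.48 times the mean over gaps of -10 to 50 nt for short and 1.44 times for long reads of Tdrkh-/-. In Tdrkh+/- the values were 1.04 and 1.21. Reads that follow each other without a gap were thus relatively more frequent in Tdrkh-/-, a pattern that shares its sequences with the one at the next base.

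**Figure D5:**
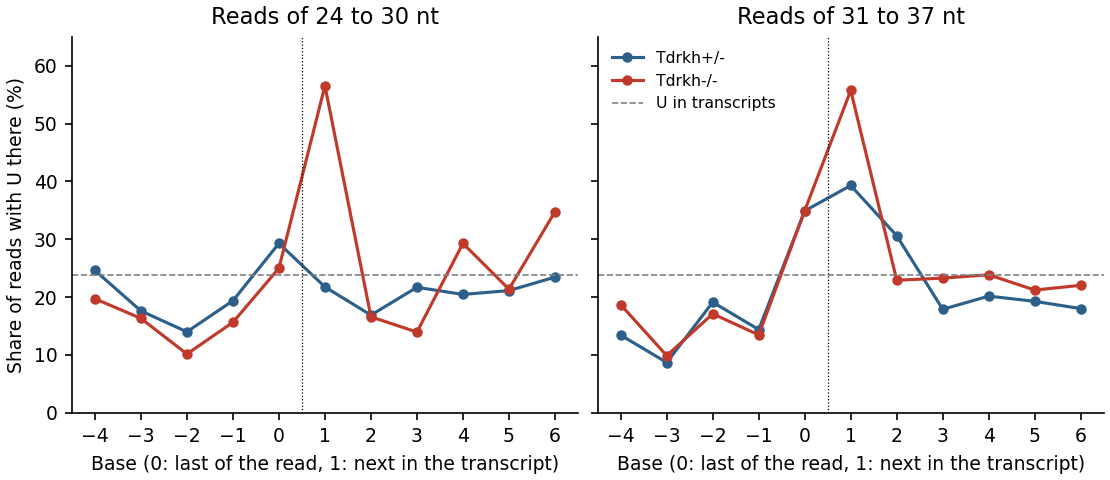
Share of reads with U (y axis, percent) at the last bases of the read (x axis, -4 to 0) and at the next bases of the transcript (1 to 6), for short (left) and long (right) reads in each library; the dashed line is the share of U in the member transcripts. At the next base Tdrkh-/- reaches 56.5% and 55.7%, Tdrkh+/- 21.8% and 39.3%.

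At their 5′ end the reads favoured U, as primary piRNAs do. The share with 5′ U at 24 to 30 nt was 64.4% (64 to 64.8) in Tdrkh-/- and 73.5% (73.3 to 73.6) in Tdrkh+/-, and at 31 to 37 nt 63.5% and 65%. Reads of all other protein-coding genes had 76.1% and 81.4% at the short and 74.8% and 72.4% at the long lengths. The members were therefore above their own U content and below other hosts. Over the members that passed, the share at 24 to 37 nt ran from 2.92% to 92.3% in Tdrkh+/- with a median of 72.5%, and from 25.3% to 88.4% in Tdrkh-/- with a median of 59.3%. An A at position 10 of reads without 5′ U, the mark of secondary piRNAs, was present in 35.5% and 26.6% of these short reads in Tdrkh-/- and Tdrkh+/-, against 47% and 33% of those with 5′ U. The order was the other at 31 to 37 nt, with 43.5% and 33.3% without and 29.6% and 25.4% with 5′ U, and also for short reads of sequences in 1 gene, with 46.6% and 28.3% against 27.1% and 26%. With each distinct short sequence counted once, 29.6% stood against 27.8% in Tdrkh+/-, and both Tdrkh-/- shares were level. Short reads of all other protein-coding genes had 53.2% and 38.5% without and 38.3% and 32.4% with 5′ U in Tdrkh-/- and Tdrkh+/-, the other order from the members. In sequences of 1 gene these were 33.2% and 32.5% without and 34.7% and 31.7% with 5′ U.

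Coding regions held most reads. They take up 51.3% of the bases of the representative transcripts and held 76.4% (76.1 to 76.7) of the short Tdrkh+/- reads and 67.9% (67.3 to 68.5) of the short Tdrkh-/- reads. Where transcripts of a gene tied on coding length the longest was taken, such as Rps20-203, with 3706 nt for a coding region of 360 nt. The shares of bases given here depend on that choice, which favours untranslated regions, and other choices were not tested. At 31 to 37 nt they held 69.5% and 68.2%. The 3′ UTRs, with 32.4% of bases, held 9.95% of the short reads in Tdrkh+/- and 14.9% in Tdrkh-/-. Reads across a boundary of the coding region, which were in none of these classes, made up 10.6% and 14.9%. Among reads in 1 gene the coding share at 24 to 30 nt was 62.3% in Tdrkh+/- and 44% in Tdrkh-/-, with a further 20.6% and 28.2% across a boundary.

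Within codons the starts were not spread evenly. Of the short reads in coding regions 54.6% began at codon position 2 in Tdrkh-/- and 36.6% in Tdrkh+/-, where 42.3% of the coding U lie at position 2. All starts are counted here, with or without U. The Rpl4 end printed above begins at position 2 and held 52.5% of the 5146 short Tdrkh-/- reads of Rpl4. Position 2 had 8104 divided short Tdrkh-/- reads in all, so this 1 end weighs on the share. The share without it was not computed. At codon position 3 the shares were 25.9% and 41.3%, beside 35.2% of the coding U. With each distinct sequence counted once, position 2 had 37.3% in Tdrkh-/- and 35.3% in Tdrkh+/-.

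Antisense reads were few. Short ones numbered 2102 in Tdrkh-/- and 3322 in Tdrkh+/-, 4.04 and 1.40 per 100 sense reads. Most of them, 88.5% and 60.7%, also match an annotated transcript in sense, so their strand of origin is uncertain. The order of the libraries was the other when each distinct sequence was counted once, with 3.04 and 3.15, and in sequences of 1 gene, with 1.36 and 1.67. Rps15a led in Tdrkh+/- with 1524 antisense reads of 24 to 37 nt, against 616 in Tdrkh-/-, and Rps13 led in Tdrkh-/- with 724, against 296; both were singled out after their values were seen. An overlap of 10 nt between the 5′ ends of opposite-strand reads, the mark of cutting by one piRNA in answer to another, had 13.2% of the weighted pairs over 1 to 24 nt in Tdrkh-/- and 6.87% in Tdrkh+/-. By these read-weighted pairs it was not the most frequent overlap in either library, with 14.3% at 8 nt in Tdrkh-/- and 12.3% at 22 nt in Tdrkh+/-. The weighted shares of Tdrkh-/- alternated by 2 nt, with 11.1% at 6 nt and 10.1% at 12 nt but 2.25% at 9 nt and 2.63% at 11 nt. The 10 nt value is thus 1 of several like it, and the cause was not tested. Counted as pairs of ends, 10 nt had 10 pairs in Tdrkh-/-, where 5 nt had 11. In Tdrkh+/- it had 93, the most of the 24 overlaps, where 22 nt came next with 81. These are 5.99% and 5.55% of all pairs of ends.

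Other genes of translation were hosts too. Of 24 further genes whose messenger RNAs begin with the pyrimidine run, 15 passed the minimum, 13 were at least 2-fold lower at 24 to 30 nt and 10 at least 2-fold higher at 31 to 37 nt, with medians of -1.78 and 1.13. Of all hosts that passed, 73.2% were so lowered and 78.2% so raised, beside which these counts are read. The 3 with most reads were Eef1b2, an exchange factor of elongation, at -1.98 and 2.07, Pabpc1, the poly(A)-binding protein, at -1.44 and 2.59, and Eef2, which moves the ribosome along, at -1.32 and 1.14. Fau, which encodes a ribosomal protein fused to a ubiquitin-like one and falls outside the name rule, had a log2 ratio of -3.41 for its short and 0.70 for its long reads, and was singled out after its values were seen.

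Of 32 ribosome biogenesis genes 13 passed, 8 of them at least 2-fold lower at 24 to 30 nt and 11 at least 2-fold higher at 31 to 37 nt, with medians of -1.56 and 1.38, again beside 73.2% and 78.2% of all hosts. Ncl, the nucleolar protein nucleolin, had -1.56 and 1.29, Rrn3, an initiation factor of RNA polymerase I, -0.65 and 2.39, and Polr1a, its largest subunit, -3.11 and 1.30. Of 78 genes for mitochondrial ribosomal proteins, which have the like function in another compartment, 24 passed, with medians of -2.0 and 1.38. The cytosolic ribosomal protein genes thus had the lowest medians of these 4 lists at both lengths, a description with no test.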

How the data were processed

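Per the labels' protocols, gel-purified small RNAs of whole testes were made into libraries with an Illumina small RNA kit and read on a Genome Analyzer II. What the authors deposited is, for each library, a list of distinct sequences with a whole-number read count. Bowtie and mm9 are named in the submitters' processing notes; for their role and versions, and for any trimming or filter, nothing is given in the sources used here.

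Sequences were matched exactly and over their whole length to GENCODE M21 transcripts (GRCm38) with Python 3.11.15, NumPy 2.4.6, pandas 2.3.3, SciPy 1.17.1 and Numba 0.67.0 (Matplotlib 3.10.9 for figures). Sequences within ribosomal, small nucleolar or other structural RNA genes, and those of up to 25 nt within microRNA hairpins, were left out of host counts; a read in several genes was divided equally among them, pseudogenes included. Levels are per microRNA read (18 to 25 nt in hairpins: 2486303 and 2363475); 51.5% and 46.4% of reads matched a transcript. Counts under 3 reads were raised to 3 for log2 ratios. Ratios carry exact conditional binomial and shares Wilson 95% intervals. Regions, 5′ ends, 3′ ends and overlaps use 1 transcript per gene, that with the longest coding region and, among ties, the longest transcript. The matcher and the ratios were tested on simulated data.

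Members named are the 12 with most short reads, the 6 highest and 6 lowest short and 4 highest and 4 lowest long ratios among those with 500 reads, those with at least 90% of reads in 1 gene, the stalk proteins, Rpsa, and paralogs with their parents; from other lists the 3 with most reads, and exceptions are marked; some items that the rule names are not reported here, though summary counts include them. Lists covered germ, Sertoli, Leydig and peritubular cells, macrophages, blood, translation, ribosome biogenesis and mitochondrial ribosomal proteins. Members and lists were chosen with earlier results of these data known. The alternatives tried are other ways of counting and sharing reads, other windows, minimums and scalings and a shorter member list.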

Additional observations from a re-analysis of the deposited data

Results flagged for a closer look

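Ribosomal protein genes also had reads at lengths that no comparison used, with ratios to the Tdrkh+/- library, the control, above 1. At 38 to 40 nt there were 30713 and 13348 reads, a ratio of 2.19 (2.14 to 2.23) per microRNA read. At 18 to 23 nt there were 12619 and 11723, a ratio of 1.02 whose interval (0.998 to 1.05) holds 1. The deposited lists end at 40 nt, so longer reads were not analysed here.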

How the results depend on the processing

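No paired analysis was possible because each genotype has 1 library, and none could be left out. The alternatives left the median log2 ratio at 24 to 30 nt negative in every setting run. With each distinct sequence counted once it was -2.02, in sequences of 1 gene -2.34, in windows of 26 to 28 and 33 to 36 nt -3.39, with a minimum of 100 reads -2.38, with no minimum -2.38, per read listed -3.06 and per transcript-matching read -3.20. The median at 31 to 37 nt reversed to -0.35 when distinct sequences were counted. It was 0.80 in sequences of 1 gene, 1.14 in the narrow windows, 0.17 per read listed, 0.0233 per transcript-matching read and 0.94 in sequences listed in both libraries.

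Counts are given of the members that pass in each setting. The 51 of 56 at least 2-fold lower became 20 of 25 in sequences of 1 gene, 23 of 28 without sequences of pseudogenes, 80 of 90 with no minimum and 32 of 39 in sequences of both libraries. The 17 of 56 at least 2-fold higher became 0 of 56 by distinct sequences, 11 of 25 in 1 gene, 28 of 84 with a minimum of 100, 31 of 90 with none and 10 of 56 per transcript-matching read. The 41 of 56 lower at the short and higher at the long lengths became 8 of 56, 16 of 25 and 19 of 28 by distinct sequences, in 1 gene and without pseudogene sequences, and 64 of 84 and 69 of 90 with a minimum of 100 and none. Fewer members pass where shared sequences are left out and more where the minimum is lower; the cause of the other shifts was not tested.

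Long reads per short read were 6.84-fold higher in Tdrkh-/-. This was 3.23 by distinct sequences, 7.05 without sequences read once, 6.44 in 1 gene, 6.59 without pseudogene sequences, 7.34 with reads given whole to the member, 14.1 in the narrow windows, 5.75 in sequences of both libraries and 6.68 for the shorter list. It was 7.56 with reads divided among protein-coding and long noncoding genes alone, a setting chosen after seeing the data.

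Shares are given for Tdrkh-/- short, Tdrkh+/- short, Tdrkh-/- long and Tdrkh+/- long reads in this order. By distinct sequences 5′ U was 47.9%, 47.1%, 47.8% and 43.9%, the coding share 65.5%, 64.1%, 65.9% and 68.8% and antisense per 100 sense reads 3.04, 3.15, 2.53 and 1.75. In sequences of 1 gene 5′ U was 61%, 75.7%, 55.6% and 57.4%, the coding share 44%, 62.3%, 44.6% and 48.3% and antisense reads 1.36, 1.67, 1.10 and 0.655. The share of long Tdrkh-/- reads at starts of short Tdrkh+/- reads was 67.8% by distinct sequences and 83.1% in 1 gene. Of the other settings, 44 left a value close to the one reported, among them the removal of reads that overlap a structural RNA, also chosen after seeing the data. Depth limits members with few reads, 1 library per genotype leaves biological variation unmeasured, and reads shared with pseudogenes cannot be assigned to a gene.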
